A study of Brassica rapa subsp. chinensis with 24 samples.

Results

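Heat shock proteins and chaperones were followed in leaf and root of the vegetable Choy-sum, Brassica rapa subsp. chinensis, as a set of 40 identifiers for heat shock factors, small heat shock proteins (small HSPs), HSP70, HSP90, HSP101, chaperones and protein disulfide isomerases (PDI) of the endoplasmic reticulum (ER), and CPN60. The members were listed by identifier, with earlier results of these data known, and 37 of the 40 labelled rows of the expression table. AT3G09440, AT5G12030 and AT1G07400 labelled no row. The 37 identifiers covered 177 rows, from 1 to 14 rows each, out of 20564 identifiers and 66566 rows. The plants were wild type and were raised on peat-moss soil, either from seeds dressed with a consortium of Streptomyces, Agromyces and Bacillus (SAB), or from seeds soaked in MgSO4 solution without bacteria (untreated). Whole leaves and roots were sampled on day 8 (true leaf stage) and on day 18 (mature plants before the onset of flowering). Each of the 8 groups (untreated or SAB, leaf or root, day 8 or day 18) had 3 biological replicates, described as independent. The p-values rest on the spread between replicates within groups, estimated over all groups fitted together.

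Chaperones bind unfolded or newly made proteins and keep them from clumping, and most heat shock proteins are chaperones. In plants, heat shock factors are the transcription factors that switch many of their genes, small HSPs hold unfolded proteins without using ATP, HSP70 and HSP90 fold and mature client proteins with ATP, and HSP101 pulls proteins out of aggregates. ER chaperones and PDI fold secreted proteins and form their disulfide bonds, and CPN60 forms the barrel-shaped chaperonin in which proteins of the plastid fold. The identifiers have the form of Arabidopsis thaliana locus codes, and each class is that of the A. thaliana locus. The files used here do not annotate the B. rapa rows, so whether the rows of 1 identifier are gene copies or transcript forms is not known, and reads of near-identical rows may be divided between them. Levels are given as CPM (counts per common library size) of the summed rows of an identifier, scaled for library composition. No lengths were at hand, so differences in CPM between identifiers are not differences in transcript number.

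The libraries held 28068078 to 37999455 estimated counts. Across the identifiers tested in a tissue, the mean rank correlation of a library with the others of its own group lay between 0.967 and 0.992 in all libraries except replicate 3 of untreated root at day 8, at 0.958. The 6 leaf markers listed summed to 59160 to 137800 CPM in leaf and 24.5 to 430 CPM in root, and the 5 root markers to 602 to 2246 CPM in root and 1.53 to 12.4 CPM in leaf, so the tissue labels held. At day 18 the leaf markers summed to 59160 to 69750 CPM in SAB leaf and 90790 to 119900 CPM in untreated leaf. In whole organs, fewer cells of a type and less RNA per cell cannot be told apart.

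The classes differed in where and when they were abundant. CPN60 and plastid HSP70 were highest in leaf at day 8. The summed level of the 2 CPN60 identifiers was 3428 ± 407 CPM (SD, n = 3) in untreated leaf at day 8 and 1042 ± 24.3 CPM at day 18, and it lay between 122 and 190 CPM in all root libraries. The 4 cytosolic HSP70 identifiers went the other way with age, from 2219 ± 237 CPM to 3390 ± 31.1 CPM in untreated leaf and from 1600 ± 152 CPM to 2936 ± 294 CPM in untreated root. The 4 heat shock factors summed to 20.7 to 77.7 CPM in the leaf libraries and 69.0 to 188 CPM in the root libraries. The 11 ER chaperone and PDI identifiers summed to 1344 to 2024 CPM in leaf and 2202 to 2926 CPM in root, without overlap. The 9 small HSPs stood at 17.4 to 64.1 CPM for the whole class in any library.

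**Figure D1:**
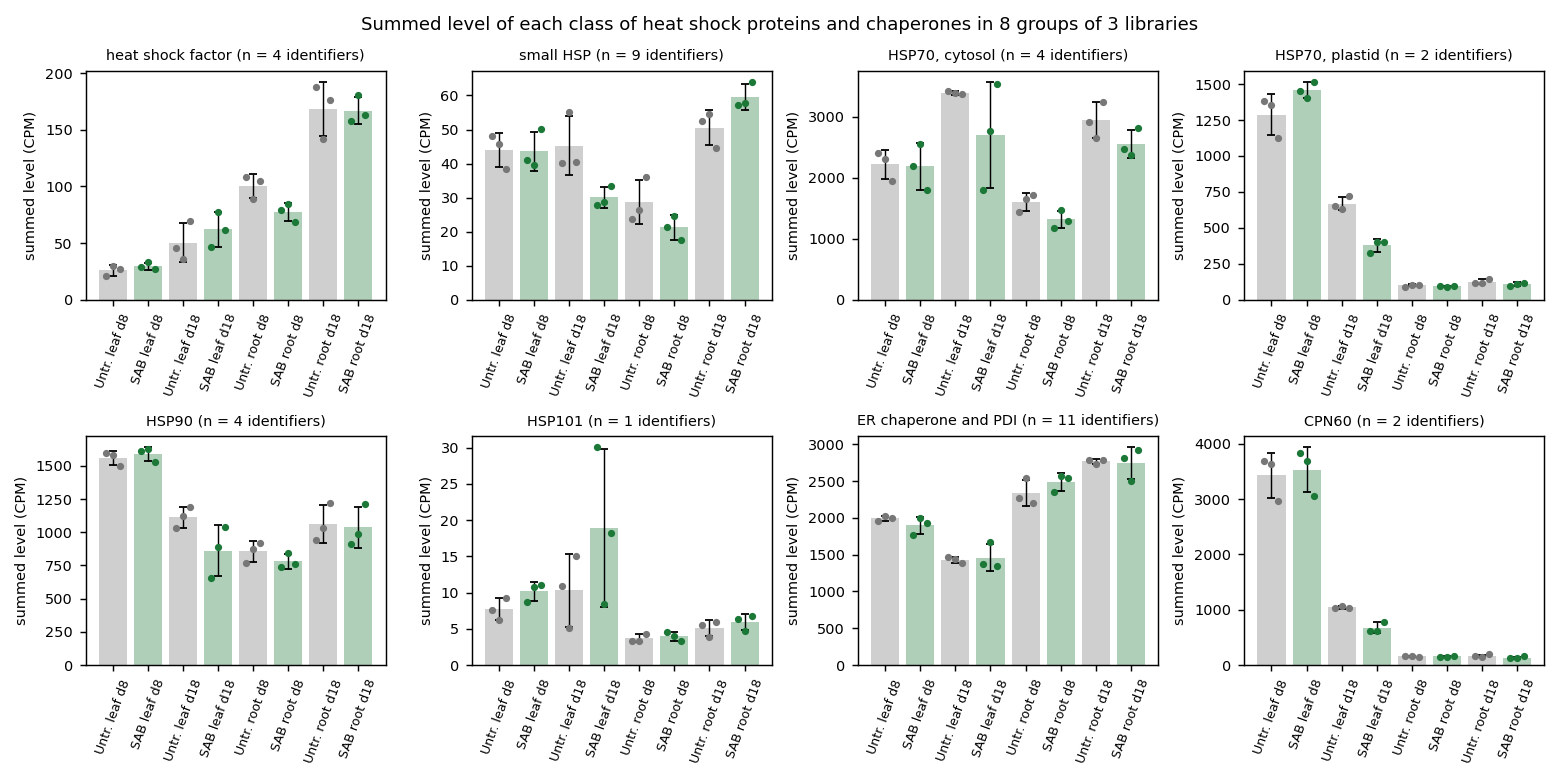
Summed level in CPM (vertical axis, linear, from 0) of each of 8 classes in the 8 groups; points are libraries, bars the mean of 3 libraries and error bars the SD, with untreated in grey and SAB in green. CPN60 was at 3428 CPM in untreated leaf at day 8 and at 122 to 190 CPM in every root library, while the ER class was higher in every root library than in any leaf library.

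The member with the most CPM in each class, not corrected for length, is given in detail. Among heat shock factors AT4G36990 was at 5.53, 6.75 and 5.52 CPM in untreated leaf and at 108, 69.1 and 76.0 CPM in untreated root at day 18. Among small HSPs AT2G29500 rose with age in untreated leaf, from 2.70, 3.79 and 3.89 CPM to 14.2, 22.4 and 16.8 CPM. In untreated root it went from 11.3, 10.7 and 15.6 CPM to 34.0, 38.6 and 29.6 CPM. Neither pair of ages overlapped. The cytosolic HSP70 AT5G02500 was at 1291, 1242 and 1028 CPM in untreated leaf at day 8 and at 2165, 2128 and 2156 CPM at day 18. In untreated root it was at 727, 875 and 709 CPM at day 8 and at 1807, 1696 and 2110 CPM at day 18. In SAB leaf at day 18 the same identifier spread from 1164 to 2225 CPM, with replicate 1 lowest, while the untreated libraries lay within 2128 to 2165 CPM.

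The plastid HSP70 AT4G24280 was at 761 to 939 CPM in untreated leaf and 892 to 997 CPM in SAB leaf at day 8, and no root library exceeded 96.0 CPM. The HSP90 AT5G56030 lay between 470 and 831 CPM in all libraries except replicate 1 of SAB leaf at day 18, which was at 363 CPM. HSP101, AT1G74310, was at 3.32 to 6.80 CPM in root and at 5.06 to 30.1 CPM in leaf. Its highest value was in replicate 1 of SAB leaf at day 18, and the other 2 replicates of that group were at 8.39 and 18.2 CPM. The ER member AT5G61790 was at 203 to 485 CPM in leaf and 451 to 738 CPM in root, with overlap. The CPN60 AT2G28000 fell from 2136, 1951 and 1581 CPM in untreated leaf at day 8 to 631, 715 and 628 CPM at day 18.

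Between day 8 and day 18, the heat shock factor AT4G11660 and 3 of 4 cytosolic HSP70 members rose in untreated leaf. Both CPN60, both plastid HSP70 and 5 of 10 ER members fell there. Of the 32 members that passed the filter on low values in leaf, 7 rose and 11 fell (adjusted p under 0.05 in edgeR's quasi-likelihood test, with Benjamini-Hochberg adjustment), where 40.6% of all 17706 identifiers tested changed, 20.0% up and 20.5% down. The 7 called higher include 3 of 4 heat shock factors, AT2G26150, AT4G11660 and AT5G62020, of which only AT4G11660 is read as a rise. AT2G26150 was near 0 at day 8, at 0.0293, 0.0671 and 0.0668 CPM, and at 1.06, 1.26 and 2.67 CPM at day 18, without overlap; it passed the filter only through day 18, so its call is not given as a result. AT4G11660 went from 8.78, 12.6 and 10.1 CPM to 29.9, 21.7 and 26.5 CPM, a log2 fold of 1.31 (SE 0.20, adjusted p = 0.000518). AT5G62020 rested on 1 library: at day 18 its values were 9.47, 6.01 and 35.2 CPM against 6.21, 7.56 and 3.23 CPM at day 8 (log2 fold 1.56, SE 0.57, adjusted p = 0.0494). Without untreated day 18 replicate 3 its log2 fold was 0.46 (adjusted p = 0.373), and the call was also lost when any untreated day 8 library, any SAB leaf library of either day, or the filter was left out.

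In the cytosolic HSP70 class 3 of 4 members rose in leaf. AT3G12580 went from 5.55, 8.71 and 7.62 CPM to 22.1, 35.8 and 27.9 CPM (log2 fold 1.97, SE 0.33, adjusted p = 0.000791). AT1G16030 and AT5G02500 rose by 1.41 and 0.86 on the log2 scale, and AT5G02490 had a fold of 0.22 without a call. The small HSP class split: AT2G29500 rose by 2.37 on the log2 scale (SE 0.23, adjusted p = 2.2e-05), whereas AT5G12020 fell by 1.55 (SE 0.50, adjusted p = 0.0309). AT5G12020 was at 10.5, 6.14 and 6.42 CPM at day 8 and at 0.614, 3.83 and 3.41 CPM at day 18. Its call was lost without untreated day 8 replicate 1 (log2 fold -1.27, adjusted p = 0.107).

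Both CPN60 members, both plastid HSP70 members, 1 HSP90 and 5 of the 10 ER members tested fell with age in leaf. AT1G55490, the other CPN60, went from 1556, 1682 and 1379 CPM to 401, 355 and 396 CPM, a fall by 2.0 on the log2 scale (SE 0.16, adjusted p = 5.76e-06). AT2G28000 had a log2 fold of -1.52 (SE 0.15, adjusted p = 2.11e-05). The HSP90 AT2G04030 fell from 653, 650 and 604 CPM to 223, 228 and 195 CPM (log2 fold -1.56, SE 0.10, adjusted p = 1.63e-06). The other 2 HSP90 members tested had log2 folds between -0.11 and -0.02 and did not pass. The steepest fall in the ER class was that of AT1G21750, from 138, 128 and 127 CPM to 50.9, 51.8 and 80.8 CPM (log2 fold -1.10, SE 0.23, adjusted p = 0.00352). All 10 ER members had a log2 fold below 0, with a median of -0.25. Calls of 3 of the 5, AT1G08450, AT1G56340 and AT4G24190, were lost on leaving out single libraries, each of the 3 untreated libraries of day 8 among them, with adjusted p of up to 0.145, and the count of 18 members fell to 12 without untreated day 8 replicate 1. The leaf markers summed to 103700 to 131700 CPM in untreated leaf at day 8 and 90790 to 119900 CPM at day 18, with overlap.

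In untreated root no member fell with age and 9 of 35 rose in the edgeR test, beside a background of 16.5% of 18973 identifiers, 8.22% up and 8.25% down. The members' median log2 fold was 0.44, against 0.01 over all identifiers tested. Without size factors the split was 8 higher and 1 lower (AT1G55490), beside 1444 identifiers higher and 1529 lower of 18973. DESeq2 called 13 members higher and 2 lower, beside 2203 identifiers higher and 2254 lower. The 5 root markers were lower at day 18, at 702 to 909 CPM against 1444 to 2246 CPM in untreated root, and their part in the result was not tested. Without replicate 3 of untreated root at day 8 the count was also 9. The small HSP AT2G29500 rose by 1.49 on the log2 scale (SE 0.18, adjusted p = 0.000604), the HSP70 members AT1G16030 by 1.34 (SE 0.16) and AT5G02500 by 1.32 (SE 0.14), and the heat shock factor AT4G11660 by 1.27 (SE 0.15). AT1G16030 was at 13.2, 12.7 and 9.80 CPM at day 8 and at 26.8, 33.3 and 27.8 CPM at day 18. AT4G11660 was at 7.68, 7.41 and 7.24 CPM and then at 16.7, 20.2 and 15.5 CPM. The HSP90 AT5G56030 rose by 0.53 on the log2 scale (SE 0.15, adjusted p = 0.0318), a call lost without untreated day 8 replicate 1 or 3, SAB day 8 replicate 1 or 3, or untreated day 18 replicate 2 or 3 (adjusted p of up to 0.118). The ER member AT5G42020 rose from 264, 328 and 191 CPM to 451, 465 and 522 CPM (log2 fold 0.91, SE 0.18, adjusted p = 0.00853).

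In these tests 6 members were called higher with age in both tissues: AT1G16030, AT2G29500, AT3G12580, AT4G11660, AT5G02500 and AT5G62020. That is 6 of 32 members tested in both (18.8%), beside 4.41% of 17108 identifiers. The 6 are 3 cytosolic HSP70 members, 2 heat shock factors and 1 small HSP. Of the 2 heat shock factors only AT4G11660 is read as a rise in both, since the leaf call of AT5G62020 rested on 1 library. The plastid HSP70 AT5G49910 was lower at day 18 in leaf (log2 fold -0.51, SE 0.16, adjusted p = 0.0291) and higher in root (1.23, SE 0.37, adjusted p = 0.0465). Its day 8 root values were 24.9, 35.5 and 9.01 CPM and its day 18 root values 49.3, 56.0 and 53.7 CPM. Its leaf call was lost without untreated replicate 1 or 2 of day 8 or untreated replicate 1 or 3 of day 18 (adjusted p of up to 0.0948), and its root call on leaving out any root library except untreated day 8 replicates 2 and 3 (up to 0.106). The root call of AT5G62020 was lost without untreated replicate 2 or 3 of day 8 or untreated replicate 3 of day 18 (up to 0.0877).

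**Figure D2:**
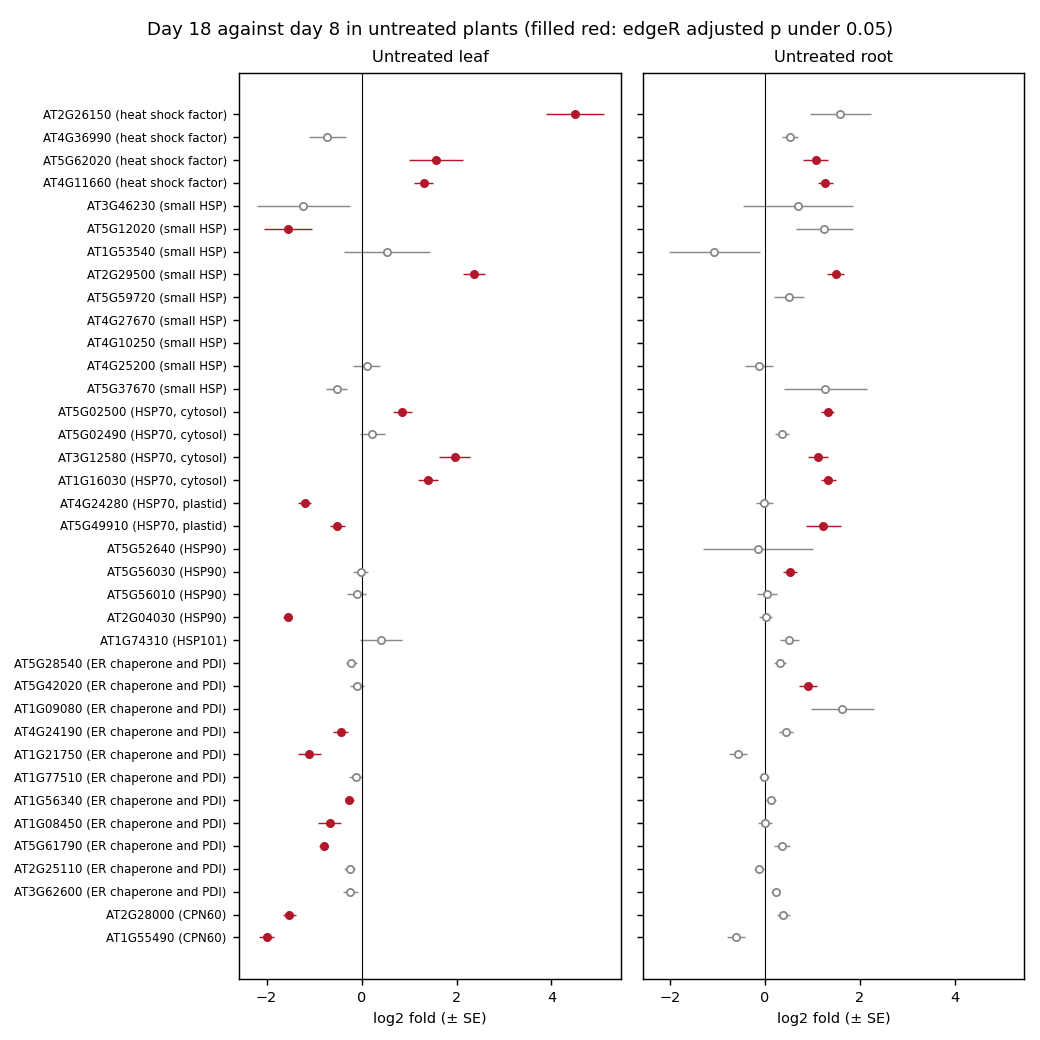
Log2 fold of day 18 against day 8 (horizontal axis, with SE) for each member tested in untreated leaf and untreated root, 3 libraries a group; filled red points passed the edgeR test. In leaf 7 members were called higher and 11 lower, with CPN60, plastid HSP70 and ER members on the left. In root 9 rose and 0 fell. The fold of AT2G26150 in leaf, the farthest to the right, rests on day 8 values near 0, and its call is not given as a result.

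Leaf and root differed in most members, as did most identifiers. Of 35 members tested in untreated plants, 12 were higher and 13 lower in leaf at day 8, and 10 higher and 14 lower at day 18 (edgeR, 24 libraries). The lower counts include AT5G52640, AT1G09080 and AT5G59720, which passed the filter only through their root values and so had to differ. Of all 19681 identifiers 61.6% differed at day 8 (29.0% higher and 32.7% lower in leaf) and 61.5% at day 18 (28.0% higher and 33.4% lower). Without size factors the median of all identifiers moved to -0.81 at day 8 and -0.86 at day 18. The splits of members became 8 higher and 20 lower, and 6 higher and 22 lower. Of all 19681 identifiers 3315 were then higher and 11311 lower at day 8, and 3356 higher and 11656 lower at day 18. Under that scaling the direction turned for AT4G11660 at both days, AT4G24190 and AT5G02500 at day 8, and AT1G08450 at day 18.

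Members higher in leaf than in root included the small HSP AT5G37670, both CPN60, both plastid HSP70 and the HSP90 AT2G04030. AT5G37670 was at 16.6, 15 and 12.6 CPM in leaf and 0.234, 0.0288 and 0.523 CPM in root at day 8 (adjusted p = 9.06e-08), and root values were too near 0 for a fold. AT1G55490 was 4.68 log2 units higher in leaf at day 8 (SE 0.21) and 3.33 at day 18 (SE 0.20). For AT2G28000 these folds were 4.23 (SE 0.16) and 2.36 (SE 0.15), and for AT5G49910 4.14 (SE 0.33) and 2.43 (SE 0.31). AT2G04030 had folds of 3.83 (SE 0.13) and 2.29 (SE 0.13), and AT4G24280 of 3.52 (SE 0.19) and 2.38 (SE 0.18). All 6 were called on both days.

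Members lower in leaf included 3 at or near 0 there, given without a test because of the filter. The HSP90 AT5G52640 was listed at 0 in all 12 leaf libraries and at 0 to 1.13 CPM in root. The ER member AT1G09080 was at 0.0207, 0 and 0 CPM in untreated leaf and 0.32, 0.205 and 0.359 CPM in untreated root at day 8. The small HSP AT5G59720 was at 0.12, 0.138 and 0.339 CPM in leaf and 2.90, 2.10 and 2.84 CPM in root. AT4G36990, the heat shock factor described above, had log2 folds of -2.62 (SE 0.32) at day 8 and -3.82 (SE 0.34) at day 18. Of the ER members, AT5G28540 was lower in leaf by 1.07 at day 8 and by 1.56 at day 18, while AT4G24190 was higher in leaf at day 8 (0.42, adjusted p = 0.0213, below 0 without size factors) and lower at day 18 (-0.42, adjusted p = 0.0236).

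At day 18 both plastid HSP70 and both CPN60 members were lower in leaves of SAB plants, and the ER class was not called. Of 32 members tested, 0 were higher and 6 lower with SAB, beside 7.91% higher and 6.52% lower (14.4% in all) of 17706 identifiers. The members' median log2 fold was -0.28, and that of all identifiers was 0 to 2 decimals. The 6 were both plastid HSP70, both CPN60, the HSP90 AT2G04030 and the small HSP AT4G25200. The 6 leaf markers were also lower in these SAB leaves, at the values given above, and their part in the result was not tested. Without size factors, which moved the median of all identifiers to 0.17, the split was 1 higher (AT2G25110, 0.37) and 4 lower. Of all 17706 identifiers 2273 were then higher and 611 lower.

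AT4G25200 was at 1.23, 1.16 and 0.973 CPM with SAB and 3.22, 2.97 and 2.65 CPM without (log2 fold -1.39, SE 0.30, adjusted p = 0.0118). AT5G49910 was at 128, 170 and 174 CPM against 272, 319 and 268 CPM (log2 fold -0.85, SE 0.16, adjusted p = 0.00764). AT4G24280 was at 199, 234 and 228 CPM against 379, 315 and 455 CPM (log2 fold -0.78, SE 0.14, adjusted p = 0.00468). In all 3, as in 14.9% of all identifiers, every SAB library lay below every untreated library. AT2G28000 was at 385, 360 and 482 CPM against 631, 715 and 628 CPM (log2 fold -0.67, SE 0.14, adjusted p = 0.0118).

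The remaining pair also did not overlap, but rested on narrower margins. AT1G55490 was at 239, 252 and 302 CPM against 401, 355 and 396 CPM (log2 fold -0.52, SE 0.15, adjusted p = 0.0434). AT2G04030 was at 151, 145 and 163 CPM against 223, 228 and 195 CPM (log2 fold -0.48, SE 0.10, adjusted p = 0.0104). Without size factors their adjusted p were 0.109 and 0.0903. AT1G55490 also lost its call when any of 9 of the 12 leaf libraries was left out (all 3 untreated of each day, SAB day 8 replicate 2, and SAB day 18 replicates 1 and 2), with adjusted p from 0.0534 to 0.112.

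Other classes of leaf at day 18 gave no call. All 4 cytosolic HSP70 members had log2 folds between -0.45 and -0.29. The 10 ER members had a median of -0.01, from -0.27 to 0.51. The heat shock factor AT4G36990 was at 11.4, 19.2 and 8.64 CPM with SAB against 5.53, 6.75 and 5.52 CPM, without overlap (log2 fold 1.15, SE 0.39, adjusted p = 0.0762), and DESeq2 called it (adjusted p = 0.0292). HSP101 had a log2 fold of 0.89 with overlapping libraries (adjusted p = 0.214). The 5 members not tested in leaf were AT5G52640, AT1G09080 and the small HSPs AT5G59720, AT4G27670 and AT4G10250, none of which exceeded 0.707 CPM in any leaf library. AT4G27670 and AT4G10250 passed the filter in no test and stayed at or under 0.503 CPM in root.

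**Figure D3:**
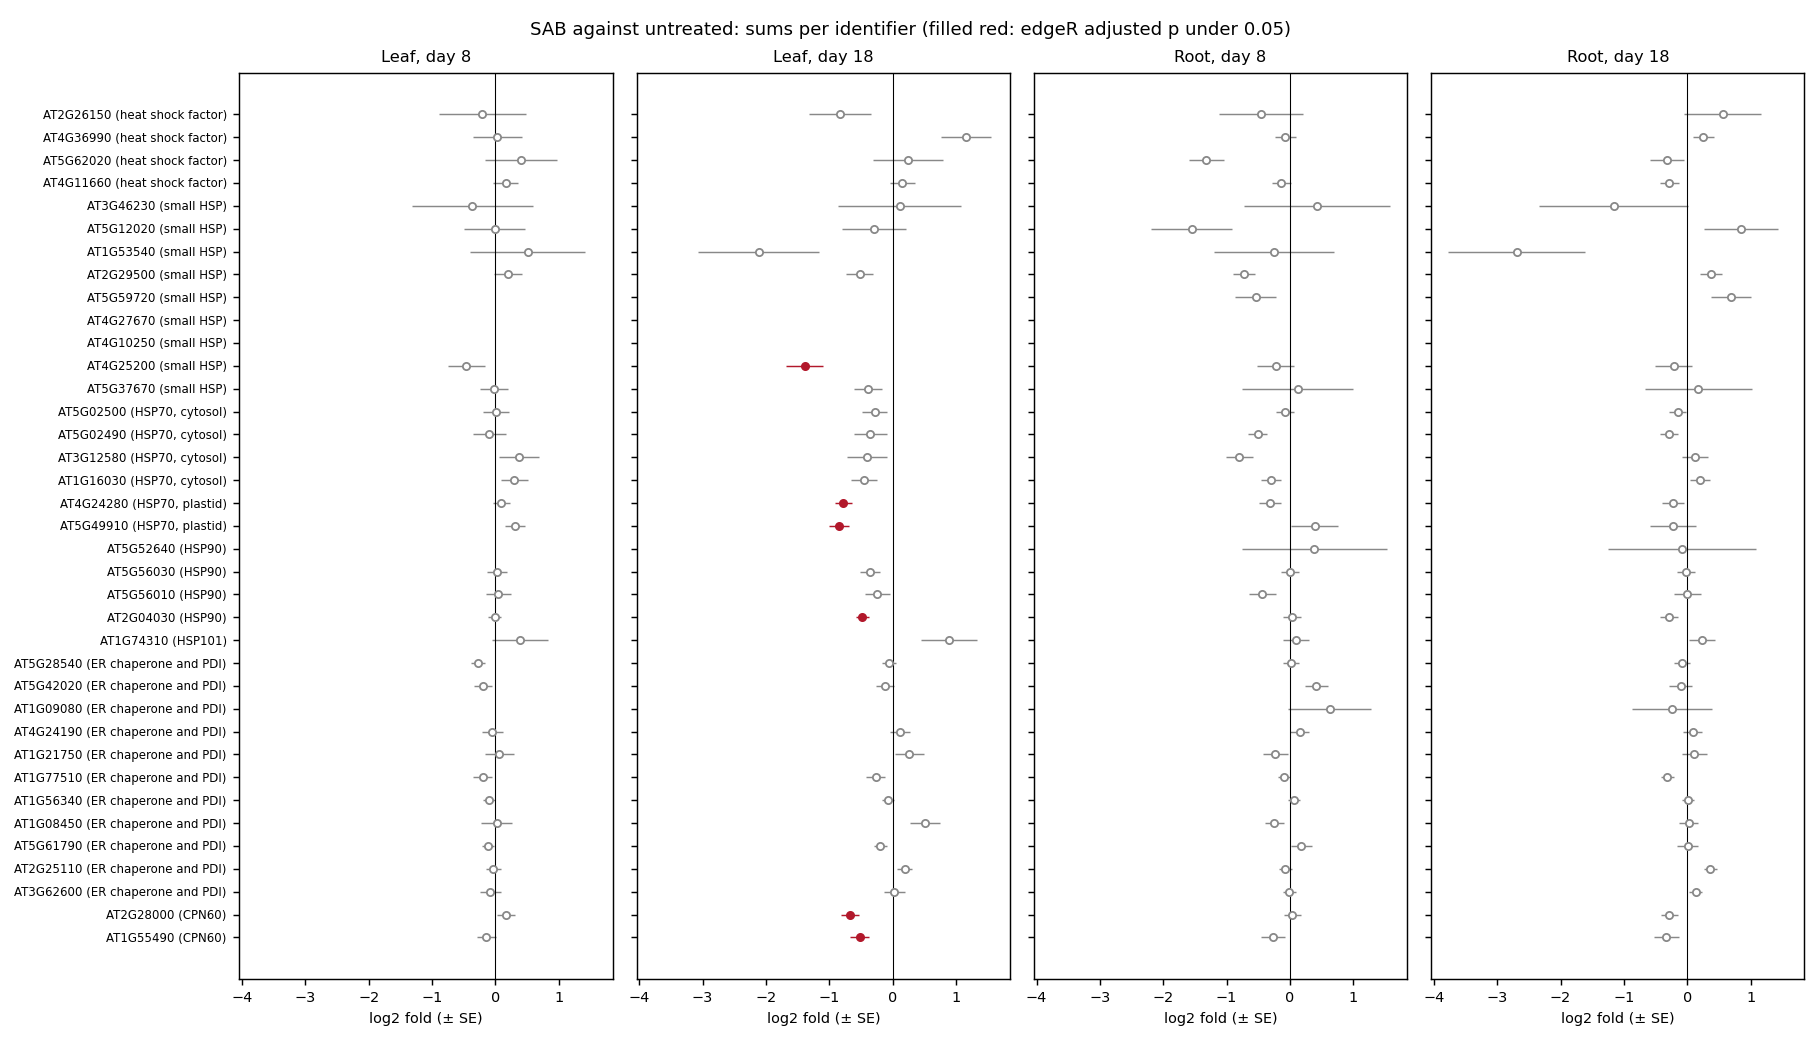
Log2 fold of SAB against untreated (horizontal axis, the same scale in each panel, with SE) for each member tested in leaf and root at day 8 and day 18, 3 libraries a group; filled red points passed the edgeR test. The 6 filled points, all in leaf at day 18 and all to the left of 0, are AT4G25200, both plastid HSP70, AT2G04030 and both CPN60.

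At day 8 leaf gave 0 calls among 32 members in edgeR and in DESeq2. Of all 17706 identifiers 0.424% were called in edgeR, and 391 identifiers in DESeq2. An unadjusted edgeR p under 0.05 was seen in 1 member and in 1597 identifiers. The smallest p was that of the ER member AT5G28540, at 99.8, 105 and 102 CPM with SAB and 121, 124 and 120 CPM without (log2 fold -0.27, SE 0.11, adjusted p = 0.498). The next were AT5G49910 (log2 fold 0.31, adjusted p = 0.649) and AT4G25200 (-0.46). The change of the SAB effect between the days was tested directly, and 2 members passed, both lower, beside 2.46% of all identifiers, 1.47% lower. AT5G49910 had a difference of -1.16 (SE 0.23, adjusted p = 0.037) and AT4G24280 one of -0.88 (SE 0.19, adjusted p = 0.0454). Both plastid HSP70 calls were fragile: each was lost on leaving out any of 10 of the 12 leaf libraries, all of them but untreated day 18 replicate 3 and SAB day 18 replicate 3 for AT5G49910, and but untreated day 18 replicate 2 and SAB day 18 replicate 3 for AT4G24280, with adjusted p from 0.0509 to 0.0964 and from 0.0622 to 0.115.

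Root showed no call with SAB at either day by edgeR. At day 8, 0 of 35 members passed, beside 0.0738% of 18973 identifiers called. The unadjusted edgeR p was under 0.05 in 6 members and in 1948 identifiers. DESeq2 called 4 members lower, AT2G29500, AT3G12580, AT5G02490 and AT5G62020, beside 487 identifiers lower and 52 higher. The heat shock factor AT5G62020 was at 12.8, 15.9 and 10.7 CPM with SAB and 41.0, 25.5 and 31.2 CPM without, without overlap (log2 fold -1.32, SE 0.27, edgeR adjusted p = 0.0908). AT2G29500 was at 6.87, 9.32 and 6.52 CPM against 11.3, 10.7 and 15.6 CPM (log2 fold -0.72, adjusted p = 0.136). AT3G12580 was at 7.82, 12.5 and 7.72 CPM against 16.0, 17.2 and 15.3 CPM (log2 fold -0.80, adjusted p = 0.161). These 3 had SAB libraries below every untreated library, as had 11.1% of all identifiers.

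At day 18 in root 0 of 35 members passed in edgeR, beside 0.764% of 18973 identifiers. The unadjusted edgeR p was under 0.05 in 3 members and in 2349 identifiers. Beside 780 identifiers, DESeq2 called 2 members. These were the ER members AT2G25110 (edgeR log2 fold 0.36, adjusted p = 0.146), at 107, 91.1 and 110 CPM against 77.5, 80.6 and 83.2 CPM, and AT1G77510 (-0.31, adjusted p = 0.207), at 108, 94.0 and 107 CPM against 124, 125 and 138 CPM. Both pairs of groups lay apart. Among the 37 members 5 had every SAB library above every untreated library and 3 had every one below, these 2 included. The share of all identifiers that lay apart in this comparison is not given here. AT1G53540, a small HSP, was at 1.30, 0.058 and 0.117 CPM against 3.95, 5.01 and 0.474 CPM (adjusted p = 0.329). The change of the SAB effect in root gave 0 calls in edgeR, beside 1.07% of 18973 identifiers. Here 7 members and 2542 identifiers had an unadjusted edgeR p under 0.05. DESeq2 called 2 members higher, beside 764 identifiers higher and 262 lower, with AT2G29500 at 1.09 (edgeR adjusted p = 0.0622). The SAB effect in leaf minus that in root gave 0 calls among 35 members at both days in edgeR, beside 2.08% and 1.02% of 19681 identifiers. At day 8 and day 18, 5 and 4 members had an unadjusted edgeR p under 0.05, beside 2485 and 2523 identifiers. DESeq2 called 0 and 1 members, beside 725 and 687 identifiers. A difference between leaf and root in the response of the plastid HSP70 and CPN60 members was therefore not shown.

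Single rows of some identifiers differed from their sums, while each member lower on sums in leaf at day 18 also had a row called lower. In leaf at day 18, 14 of 139 member rows tested differed with SAB, 3 higher and 11 lower, from 9 identifiers, beside 5.47% of 46762 rows, 2.89% higher and 2.59% lower. The count was 8 without untreated day 18 replicate 1 or 2 or SAB day 18 replicate 1. In root at day 18, 3 of 147 member rows differed, from 2 identifiers, beside 0.388% of 52257 rows. Both counts include row 3 of AT1G77510 and row 4 of AT2G28000, which were at 0 in 1 treatment and are described below without a test. At day 8, 0 member rows differed in leaf and 0 in root by edgeR, beside 0.047% and 0.0% of rows. The unadjusted edgeR p was under 0.05 in 6 and 25 member rows, and in 2916 of 46762 and 3663 of 52257 rows. DESeq2 called 1 and 7 member rows, beside 723 and 953 rows.

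A row was taken as switched off when it was at 0 in all 3 libraries of 1 treatment at day 18 and at a mean of 5 CPM or more in the other. This held for 3 member rows in each tissue, 3.0% of 100 rows at that level in leaf and 3.33% of 90 in root, beside 1.13% and 0.931% of all such rows. They were the same rows in leaf and root, and as their day 18 values chose them these are given without a test. Row 3 of AT1G77510, in the ER and PDI class, was at 0 in all SAB libraries of day 18 and at 14.5, 25.2 and 26.6 CPM in untreated leaf and 34.2, 50.6 and 39.3 CPM in untreated root. At day 8 it was present with SAB, at 11.2, 11.3 and 12.7 CPM in leaf. The sum of AT1G77510 was not called in either tissue, with log2 folds of -0.27 (adjusted p = 0.262) and -0.31. The row made up 25.3% to 41.6% of the identifier in untreated leaf.

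Row 4 of AT2G28000 was off the other way round. It was at 0 in every untreated library of day 18 and at 57.1, 56.4 and 62.7 CPM in SAB leaf and 13.3, 9.84 and 18.6 CPM in SAB root. At day 8 it was at 329, 286 and 286 CPM in untreated leaf. Row 7 was also higher with SAB in leaf at day 18, at 18.6, 16.1 and 22.7 CPM against 3.85, 2.72 and 2.64 CPM (log2 fold 2.65, SE 0.30, adjusted p = 0.00197). Rows 1, 8 and 9 were lower, row 8 at 79.1, 71.4 and 88.8 CPM against 240, 250 and 271 CPM. In root row 8 was at 18.9, 16.8 and 19.5 CPM against 52.5, 41.3 and 52.2 CPM (log2 fold -1.38, SE 0.17, adjusted p = 0.0122). Rows of AT2G28000 thus moved in both directions, while its sum was lower in leaf and had a log2 fold of -0.28 (adjusted p = 0.437) in root.

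Row 3 of the ER member AT5G28540 was at 0 with SAB at day 18 in both tissues, and its untreated values depended on the replicate. They were 35.8, 35.4 and 0 CPM in leaf and 98.2, 80.1 and 0.378 CPM in root. The sum of AT5G28540 had log2 folds of -0.06 and -0.08. The small HSP AT3G46230 was at 0 in replicate 2 of untreated leaf and of untreated root at day 18, and at 3.88 and 9.45 CPM in leaf and 4.50 and 4.13 CPM in root in the other replicates.

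**Figure D4:**
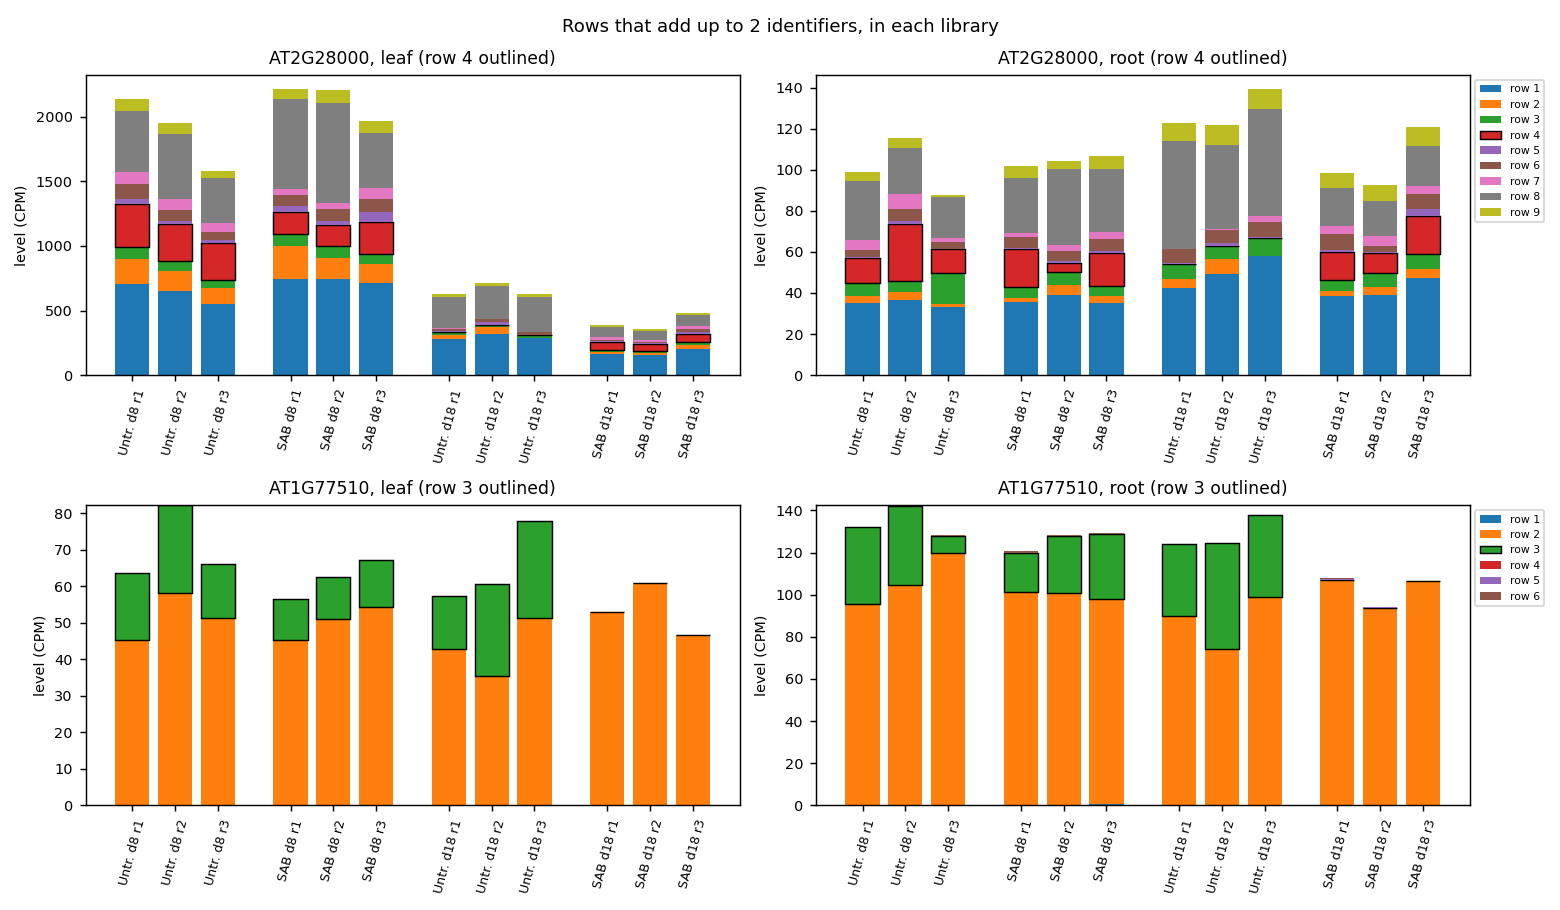
Level in CPM (vertical axis, linear, from 0, with its own range in each panel) of the rows that add up to AT2G28000 and AT1G77510 in each leaf and root library, with the switched-off row outlined in black. Row 4 of AT2G28000 is missing from the 6 untreated libraries of day 18 and row 3 of AT1G77510 from the 6 SAB libraries of day 18.

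Other protein folding genes, 69 identifiers listed by their A. thaliana locus codes, were read beside the members. The table held 65, and 60 were tested in leaf and 61 in root. With SAB 3 were higher and 3 lower in leaf at day 18, beside 14.4% of all identifiers, and 0 passed in leaf at day 8, root at day 8 or root at day 18 in edgeR. Among 14 further heat shock factors AT4G18880 was higher in leaf at day 18, at 74.0 ± 4.46 CPM (SD, n = 3) against 36.5 ± 10.4 CPM (log2 fold 1.03, SE 0.20, adjusted p = 0.00773). At day 8 it was at 94.7 ± 14.1 CPM against 48.8 ± 5.91 CPM in leaf (adjusted p = 0.0954) and at 22.4 ± 1.42 CPM against 43.3 ± 10.3 CPM in root (adjusted p = 0.0851), and the leaf effect minus the root effect passed (1.91, SE 0.27, adjusted p = 0.000553). A second heat shock factor, AT3G51910, was at 0.0117 CPM in SAB leaf at day 18 against 0.675 ± 0.722 CPM in untreated leaf. With SAB near 0 and an untreated SD above the mean, its call (lower, edgeR adjusted p = 0.012) is not given as a result. Of 3 further small HSPs none passed in leaf at day 18, and the smallest adjusted p was 0.144.

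In the list of ER folding and the unfolded protein response, the signalling response to unfolded protein in the ER, 2 of 14 were higher in SAB leaf at day 18. AT1G42990 was at 59.8 ± 1.76 CPM against 27.6 ± 2.48 CPM (log2 fold 1.13, SE 0.11, adjusted p = 0.000307), and its leaf effect was larger than its root effect (difference 0.75, SE 0.14, adjusted p = 0.0107) and than its day 8 effect (difference 0.85, SE 0.16, adjusted p = 0.0296). AT3G10800 was at 44.9 ± 4.44 CPM against 30.1 ± 6.23 CPM (log2 fold 0.60, adjusted p = 0.0154). None of the 10 ER chaperone and PDI members tested passed in the same contrast, with the values given above. Of 19 co-chaperones AT4G02450 was lower (log2 fold -0.31, adjusted p = 0.0268), and of 10 further chaperonins and HSP70 of organelles AT3G13860 was lower (-0.46, adjusted p = 0.0475). Of the same 10, with a median of -0.30, AT1G26230 (-0.37, adjusted p = 0.0677) and AT5G20720 (-0.45, adjusted p = 0.199) were not called in edgeR. With age in untreated leaf 8 of these 10 fell and 0 rose, with a median log2 fold of -1.20, and in untreated root 0 of 11 passed in edgeR. Over all the lists 13 rose and 17 fell with age in leaf, and 7 rose and 2 fell in root, beside 40.6% and 16.5% of all identifiers changed. AT1G26230 in that list went from 1717 ± 137 CPM at day 8 to 628 ± 23.7 CPM at day 18 in untreated leaf (log2 fold -1.45, SE 0.12, adjusted p = 8.96e-06).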

How the data were processed

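Polyadenylated RNA of whole leaves and roots was sequenced from both ends, per the labels' protocols. The submitters' processing notes name Trim Galore, Bowtie2 and kallisto; of these, the versions, roles, index and genome build: not given in the sources used here. A single table of estimated counts was deposited (66566 rows, 24 libraries). Only 0.991% of its values above 0 were whole, so an estimated count need not be 1 read, and low values are less precise than their size implies. Estimated counts were summed per identifier and rounded to whole numbers. No 2 libraries were identical.

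edgeR 4.0.16 (limma 3.58.1, R 4.3.3) quasi-likelihood tests used TMM scaling, robust dispersion, the default filter on low values (minimum count 10, total 15) and Benjamini-Hochberg adjustment over all features at 0.05. Each tissue had its own fit of 12 libraries, and all 24 for comparisons of leaf with root. SE is the log2 fold over the square root of F. CPM use TMM factors of all 24 libraries. The procedure was tested on simulated data. Alternatives were DESeq2 1.42.0, RLE size factors, no filter, a replicate block, leaving out each library, and, chosen after seeing the data, library totals without size factors.

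Members, gene lists and tests were chosen with earlier results of these data known. The text names, per comparison, the 4 largest rises and falls past the threshold, or the 3 smallest p where none passed, the member with the most CPM per class, switched-off rows, the 3 called rows with the smallest p, and up to 3 genes of each other list; AT3G46230, AT4G24190, AT5G28540 and AT5G49910 beyond this, and some members given for context, were named after their values were seen. The text gives no fold where a group had libraries at or near 0. Members that passed the filter only through the group where they are high are described without a test. Replicate numbers were taken to pair leaf with root at day 18, where the 6 same-numbered pairs deviated together (correlations 0.401 to 0.498). At day 8 the correlations were 0.003 to 0.165, and the SAB and untreated samples did not pair. The main tests of leaf against root did not use this pairing, and only the replicate block did.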

Additional observations from a re-analysis of the deposited data

Results flagged for a closer look

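The SAB effect differed between day 8 and day 18 in leaf for both plastid HSP70 members by a test of the difference itself (edgeR). The difference on the log2 scale was -1.16 for AT5G49910 and -0.88 for AT4G24280. Each call was lost on leaving out any of 10 of the 12 leaf libraries (adjusted p of up to 0.0964 and 0.115), and with the replicate number as a block (adjusted p = 0.109 for both). With SAB at day 8 both had folds above 0, at 0.31 and 0.09, without a call. In root at day 18 their folds were -0.22 and -0.23, also without a call. No group had more than 3 libraries, so single libraries far from the rest of their group were not tested for.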

How the results depend on the processing

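Over 92 named results and 1828 alternatives in all, 1633 kept direction and side of the threshold, 183 lost the call, 12 gained one and 0 reversed. The 92 leave out the leaf against root results of AT4G11660, AT4G24190, AT5G02500 and AT1G08450, whose direction turned without size factors, as given above. The 0 reversed holds only for the results counted. The 92 include results described above without a test or without their call, which had little room to change. These are AT5G52640, AT1G09080 and AT5G59720 in leaf against root, and AT2G26150 with age in leaf. Row 3 of AT1G77510 and row 4 of AT2G28000 with SAB at day 18 are also among them. In counts of members called, the cause of each change below was not tested. DESeq2 called more: 4 in root at day 8, 2 in root at day 18, and 15 for age in root. It called 4 for the change of the SAB effect in leaf and 2 in root, and 1 for leaf minus root at day 18. Over all identifiers it called 539, 780, 4457, 1367, 1026 and 687 in the same order. In single member rows it called 1 and 23 in leaf at day 8 and day 18, and 7 in root at each day. Over all rows it called 723 and 6086 in leaf, and 953 and 2163 in root. With the replicate number as a block, although SAB and untreated samples of 1 number did not deviate together (correlations -0.087 to 0.216), the change of the SAB effect in leaf gave 0, the member rows 7 in leaf and 0 in root at day 18, and AT1G55490 and AT2G04030 lost their SAB calls in leaf at day 18 (adjusted p = 0.0515 and 0.0508), which left 4 members. Over all identifiers the block called 8 for the change in leaf and 1675 for SAB in leaf at day 18. Over all rows it called 768 in leaf and 0 in root at day 18. Under the block AT5G52640 lost its leaf against root call at day 8 and at day 18, where the numbers pair (adjusted p = 0.0803 and 0.0884). Leaving out 1 library gave 0 to 3 members for the change in leaf, 5 to 6 for SAB in leaf at day 18, 12 to 17 and 7 to 10 for age in untreated leaf and root, 23 to 26 and 21 to 24 for leaf against root at day 8 and day 18, and 8 to 14 and 3 to 4 member rows in leaf and root at day 18. AT4G10250 and AT4G27670 passed the filter in no test.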
